A study of Mus musculus with 6 samples.

Results

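The amino acid transporters described here are 10 solute carrier genes that bring amino acids through the plasma membrane of T cells, chosen by name: Slc7a5, Slc3a2, Slc7a6, Slc7a11, Slc7a1, Slc1a5, Slc1a4, Slc38a1, Slc38a2 and Slc43a1. The members were chosen with earlier results of these data known, so their counts beside those of all tested genes describe the list only. All 10 genes were found among the 18193 genes with a symbol of their own on the array, through 20 of 45037 probe sets. Each gene is represented by its brightest probe set, and 9 of the 10 passed the brightness filter and were tested among 10838 genes. Expression had been measured on Affymetrix mouse arrays, whose probe sets sit near the end of each transcript, in CD8+ T cells, labelled as naive, from the spleens of C57/BL6 mice. The 6 arrays comprised wild-type (Nrdp1+/+) and Nrdp1-/- cells, each untreated or treated for 4 h or 8 h with antibodies to CD3 (immobilized, 5 µg/ml) and CD28 (soluble, 1 µg/ml), with 1 array per genotype and time. Nrdp1, the product of Rnf41, is a ubiquitin ligase. The labels give neither the age of the mice, nor how Nrdp1 was deleted, nor how many mice gave each RNA. With no replicate arrays, the spread behind each p-value is the departure of single arrays from the fitted model of time and genotype. It mixes noise, which may be technical, with any response that differs between the genotypes, and does not measure a spread between mice.

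Amino acids enter lymphocytes mainly through exchangers and sodium-coupled symporters. Slc3a2 encodes CD98 heavy chain, a glycoprotein that carries the light chains Slc7a5 (LAT1, large neutral amino acids such as leucine), Slc7a6 (y+LAT2, cationic and neutral amino acids) and Slc7a11 (xCT, cystine in exchange for glutamate) to the cell surface. Leucine taken up in exchange for glutamine feeds the amino acid sensing of mTORC1, and in T cells Slc7a5 is known to be needed for growth after antigen receptor stimulation. Slc7a1 (CAT1) brings in arginine and lysine, Slc1a5 (ASCT2) and Slc1a4 (ASCT1) exchange small neutral amino acids, Slc38a1 and Slc38a2 (SNAT1 and SNAT2) bring in glutamine and alanine with sodium, and Slc43a1 (LAT3) carries branched-chain amino acids without a heavy chain.

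Values are MAS5 signals on a linear scale, scaled by the authors to the same trimmed mean on every array. The median signal of an array lay between 61.5 and 68.6, and signals of different probe sets are not on a common scale, so levels are compared only between arrays. Changes are differences in log2(signal + 4.45) from an additive limma model of time and genotype over the 6 arrays, given with their standard error (SE, n = 6 arrays), and a gene is called at a Benjamini-Hochberg adjusted p under 0.05 over all tested genes. The changes at 4 h and 8 h share the untreated arrays. The extraction text in the labels names colon in place of spleen. Of 8 markers of colon epithelium 4 reached the array median on any array and 2 passed the brightness filter, while all 7 T cell markers on the array passed it. The brightest Rnf41 probe set gave 728 in untreated, 505 in 4 h and 639 in 8 h wild-type cells, and 528, 437 and 477 in Nrdp1-/- cells. The difference, -0.36 ± 0.12, was not called (limma, adjusted p = 0.128), and the labels do not say whether that probe set covers the deletion, so it checks nothing about the genotypes if it does not.

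The 250 bases before the transcription start were read from RefSeq promoters of build GRCm38.p6, which held 7 of the 10 genes. Slc7a5, Slc1a5 and Slc38a1 had no window there and were not searched. Both strands were searched for TGATGNAA, the core of the composite element bound by ATF4 with a C/EBP partner, and for CACGTG, the E-box bound by Myc. Of all 32851 such windows 3.45% held the first and 6.02% the second. Counted by gene, the shares were 3.91% and 6.86% of 27025 genes. Among the 7 transporters searched, TGATGNAA was found only in the Slc7a11 window, at 2 places that begin 66 and 47 bases before the start. CACGTG was found only in the Slc43a1 window, 64 bases before the start. Those 2 windows are shown with the matches in capitals, followed by the window of Slc3a2 and 1 of the 2 windows of Slc7a1, members that rose. Neither motif was found in these or in the other Slc7a1 window. A match is a description of the letters and not a bound site.
Slc7a11, chr3:50443614-50443863, minus strand: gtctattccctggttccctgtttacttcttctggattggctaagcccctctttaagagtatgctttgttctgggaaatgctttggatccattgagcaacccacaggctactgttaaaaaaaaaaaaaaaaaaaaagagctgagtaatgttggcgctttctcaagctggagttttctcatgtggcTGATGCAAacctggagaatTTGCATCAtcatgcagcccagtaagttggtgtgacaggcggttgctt
Slc43a1, chr2:84840073-84840322, plus strand: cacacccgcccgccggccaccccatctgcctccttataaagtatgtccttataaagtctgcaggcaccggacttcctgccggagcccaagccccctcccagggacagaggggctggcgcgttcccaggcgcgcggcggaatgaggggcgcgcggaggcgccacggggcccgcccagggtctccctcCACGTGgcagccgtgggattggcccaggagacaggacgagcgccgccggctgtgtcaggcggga
Slc3a2, chr19:8713898-8714147, minus strand: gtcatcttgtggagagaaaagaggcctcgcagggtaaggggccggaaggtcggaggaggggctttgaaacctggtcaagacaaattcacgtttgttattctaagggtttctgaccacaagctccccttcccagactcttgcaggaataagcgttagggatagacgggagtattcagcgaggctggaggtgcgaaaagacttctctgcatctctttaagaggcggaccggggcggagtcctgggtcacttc
Slc7a1, chr5:148399905-148400154, minus strand: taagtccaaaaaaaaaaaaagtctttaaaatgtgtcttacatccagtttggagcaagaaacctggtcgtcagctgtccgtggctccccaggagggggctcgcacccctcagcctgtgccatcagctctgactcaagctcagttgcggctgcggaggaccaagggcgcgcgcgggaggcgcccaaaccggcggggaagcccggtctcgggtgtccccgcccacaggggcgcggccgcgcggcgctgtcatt

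Slc7a5, its heavy chain Slc3a2, the arginine carrier Slc7a1 and the glutamine exchanger Slc1a5 were higher at 4 h and 8 h than untreated. The system A carrier Slc38a2 lay between 6230 and 7252 on all arrays. The labels name no untreated cells kept for 4 h or 8 h, so stimulation and time in culture cannot be told apart. At 4 h Slc7a5, Slc7a1, Slc1a5, Slc3a2, Slc7a6 and Slc38a1 were called higher, 6 of the 9 tested members, where 8.01% of all tested genes were called higher. At 8 h Slc7a5, Slc1a4, Slc7a1, Slc3a2 and Slc1a5 were called higher, 5 of 9, against 9.88% of all tested genes. Slc1a4, dim on both untreated arrays, passed the brightness filter only through stimulated cells, so its place among the 9 tested rests on its rise. None of the members was called lower at either time, where 5.51% and 9.26% of all tested genes were, and 0 members had a negative change with an unadjusted p under 0.05. The median change of the tested members was 0.78 at 4 h and 0.61 at 8 h, beside -0.05 and -0.07 for all tested genes. Without the intensity trend in limma, Slc7a5 and Slc7a1 were the 2 members called at 4 h and at 8 h. Markers of other cells moved with stimulation too. At 4 h 1 of 11 tested myeloid markers was called lower, and 0 of 9 B cell and 0 of 4 plasma cell markers. At 8 h 6 of the 11 myeloid markers were called lower, with a median of -1.08, as were 2 of 9 B cell markers and 2 of 4 plasma cell markers. The summed myeloid signal was 2254, 2140 and 2018 in untreated, 4 h and 8 h wild-type cells and 13109, 8389 and 3112 in Nrdp1-/- cells. In wild-type cells the sum hides opposite changes from untreated to 8 h. Lyz1 rose there from 632 to 843 and Lyz2 from 288 to 452, while Mpo fell from 153 to 61.0 and Cd68 from 260 to 132. The part of these other cells in the transporters' changes was not tested. In bulk RNA fewer cells of a type and less RNA per cell cannot be told apart.

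Slc7a5 changed most. Its only probe set gave 436 in untreated wild-type cells and 758 in untreated Nrdp1-/- cells. At 4 h the signals were 3664 and 4126, and at 8 h they were 3799 and 4410. The 4 stimulated arrays lie far above the 2 untreated ones, with no overlap, and the 8 h arrays differ from the 4 h ones by 0.07 ± 0.15 (limma, adjusted p = 0.95). The change was 2.75 ± 0.15 at 4 h (limma, adjusted p = 5.2e-07), a 6.72-fold rise, and 2.82 ± 0.15 at 8 h (limma, adjusted p = 3.7e-07), a 7.07-fold rise. Among the 10838 tested genes it ranked 33rd from the highest change at 4 h and 39th at 8 h. The rise was called under all 14 alternative settings at each time.

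Slc3a2, the heavy chain partner of Slc7a5, rose far less. Its signal was 2008 in untreated, 3667 in 4 h and 2980 in 8 h wild-type cells. In Nrdp1-/- cells it was 2519, 4067 and 4107. All 4 stimulated arrays stand above both untreated ones. The change was 0.78 ± 0.11 at 4 h (limma, adjusted p = 0.00087) and 0.64 ± 0.11 at 8 h (limma, adjusted p = 0.0026), which is 1.72-fold and 1.55-fold. The 95% intervals of the change at 4 h, 0.54 to 1.02 for Slc3a2 and 2.42 to 3.07 for Slc7a5, do not overlap, so the transcripts of the subunits changed unequally.

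Of the other light chains that pair with the heavy chain, Slc7a6 rose less than Slc7a5, and Slc7a11 was dim. Slc7a6 gave 946, 1334 and 1059 in untreated, 4 h and 8 h wild-type cells. In Nrdp1-/- cells it gave 734, 1155 and 1166. Stimulated arrays were all higher than untreated ones, though the 8 h wild-type array exceeded the untreated one by only 1.12-fold. The change of 0.57 ± 0.14 at 4 h was called (limma, adjusted p = 0.021), and that of 0.41 ± 0.14 at 8 h was not (limma, adjusted p = 0.062). A second probe set of Slc7a6 gave larger changes of 0.98 and 0.55, and with it in place of the brightest the 8 h rise was called (adjusted p = 0.011). The 4 h call was lost without the wild-type 4 h array (0.52, adjusted p = 0.069) and without the untreated Nrdp1-/- array (0.41, adjusted p = 0.25).

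Slc7a11, the cystine carrier, did not reach the median of any array and was not tested. Its brighter probe set gave 30.5, 43.2 and 55.8 in untreated, 4 h and 8 h wild-type cells and 38.0, 53.4 and 64.5 in Nrdp1-/- cells. The order over time was the same in the genotypes, at levels where signal over background limits the reading. Fitted without the brightness filter, the 8 h change was 0.74 ± 0.57 (limma, adjusted p = 0.53).

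**Figure D1:**
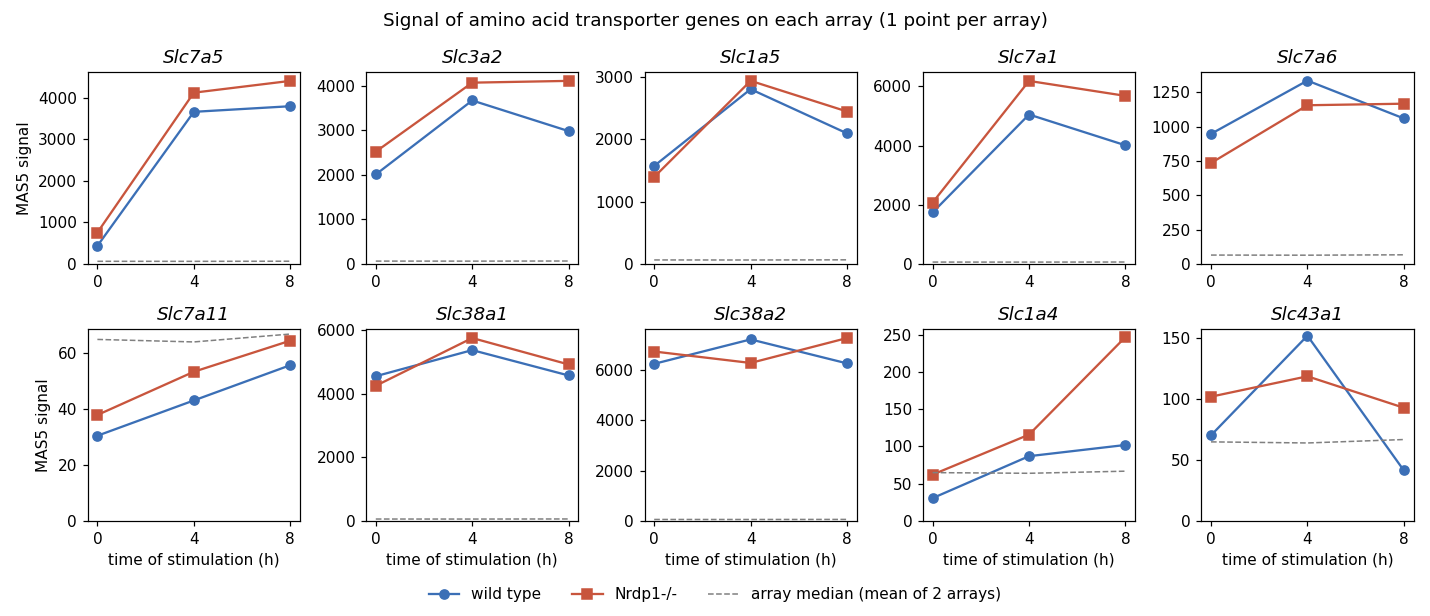
MAS5 signal (vertical axis, linear, from 0, with its own range for each gene) of the brightest probe set of the 10 transporter genes against hours of stimulation, 1 point per array, circles for wild type and squares for Nrdp1-/-, with the array median as a dashed line. Slc7a5 rises from 436 and 758 to 3664 or more on all stimulated arrays, whereas Slc7a11 stays below the median throughout.

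Slc7a1, which supplies arginine and lysine, showed the next most firmly called rise. Its brightest probe set gave 1740, 5048 and 4008 in untreated, 4 h and 8 h wild-type cells. In Nrdp1-/- cells it gave 2074, 6182 and 5677. Every stimulated array was above either untreated array. The change was 1.55 ± 0.11 at 4 h (limma, adjusted p = 3.1e-06), or 2.94-fold, and 1.33 ± 0.11 at 8 h (limma, adjusted p = 1.2e-05), or 2.51-fold. A second probe set changed by 1.36 and 1.28. The remaining probe set of Slc7a1 was below the array median on all 6 arrays and changed by -0.08 and -0.37, and averaging it in with the others lowered the gene's change to 0.94 at 4 h and 0.75 at 8 h, still called.

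Slc1a5, the exchanger through which much glutamine enters activated T cells, gave 1571, 2801 and 2093 in untreated, 4 h and 8 h wild-type cells. In Nrdp1-/- cells it gave 1394, 2935 and 2443. In both genotypes the 4 h array was the highest of the 3. The change was 0.95 ± 0.12 at 4 h (limma, adjusted p = 0.00039), or 1.93-fold, and 0.61 ± 0.12 at 8 h (limma, adjusted p = 0.0054), or 1.53-fold. Leaving out the untreated (0.45, adjusted p = 0.10) or the 8 h (0.47, adjusted p = 0.051) Nrdp1-/- array ended the 8 h call. With the dimmer second probe set of Slc1a5 the changes were 0.33 (adjusted p = 0.31) and 0.49 (adjusted p = 0.10), and neither was called.

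Slc1a4, its relative for alanine, serine and cysteine, was dim in untreated cells. The signal was 30.8, 87.0 and 102 in untreated, 4 h and 8 h wild-type cells and 62.3, 116 and 247 in Nrdp1-/- cells. Both untreated arrays lie below the array median and the 4 stimulated arrays above it, so the gene passed the filter only through stimulated cells. Against the array median the rise was at least 1.51-fold at 4 h and at least 2.36-fold at 8 h. The 8 h change of 1.75 ± 0.40 was called (limma, adjusted p = 0.011) and the 4 h change of 1.11 ± 0.40 was not (limma, adjusted p = 0.090). The 8 h call was lost without the 8 h Nrdp1-/- array (1.47, adjusted p = 0.16) and with the second probe set (1.91, adjusted p = 0.064).

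The system A carriers were bright in untreated cells and moved little. Slc38a1 gave 4555, 5376 and 4578 in untreated, 4 h and 8 h wild-type cells. In Nrdp1-/- cells it gave 4255, 5756 and 4925. Both 4 h arrays exceed the other 4, and the 8 h arrays are close to the untreated ones. The change was 0.34 ± 0.10 at 4 h (limma, adjusted p = 0.0497) and 0.11 ± 0.10 at 8 h (limma, adjusted p = 0.50). The 4 h call was the weakest among the members. It held under 7 of 15 alternatives, whose adjusted p ran from 0.016 to 0.56, and was lost when either untreated or either 4 h array was left out, with changes of 0.24 to 0.44. Its brightest probe set carries the suffix _s_at, with which the array maker marks those able to match transcripts of more than 1 gene, and the second probe set changed by 0.56 and 0.31.

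Slc38a2, the neighbouring gene on chromosome 15, gave 6230, 7198 and 6247 in untreated, 4 h and 8 h wild-type cells. In Nrdp1-/- cells it gave 6718, 6265 and 7252. The untreated and stimulated arrays overlap. The change was 0.05 ± 0.11 at 4 h (limma, adjusted p = 0.82) with a 95% interval of -0.20 to 0.30, and 0.06 ± 0.11 at 8 h (limma, adjusted p = 0.77) with an interval of -0.19 to 0.31. A second probe set changed by -0.01 and -0.03, and a dimmer one by 0.52 and 0.47, neither called.

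Slc43a1 had a dim and uneven signal. It was 70.3, 152 and 41.5 in untreated, 4 h and 8 h wild-type cells and 102, 119 and 93.0 in Nrdp1-/- cells. The 4 h arrays are the highest in each genotype, and the 8 h arrays are the lowest. The change of 0.64 ± 0.43 at 4 h (limma, adjusted p = 0.38) and that of -0.42 ± 0.43 at 8 h (limma, adjusted p = 0.55) were not called.

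**Figure D2:**
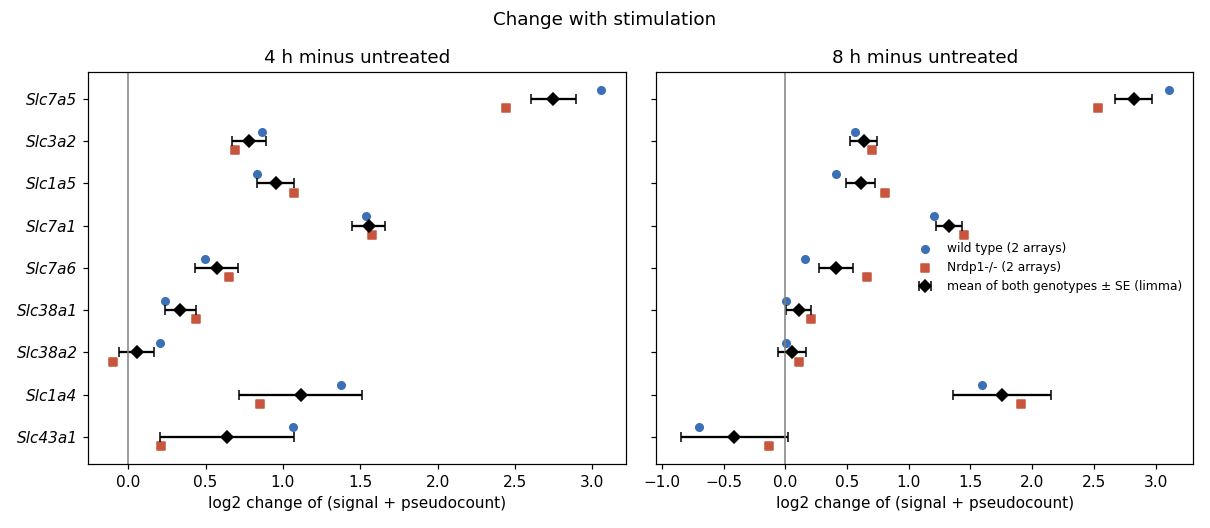
Log2 change of signal + 4.45 from untreated cells at 4 h (left) and 8 h (right) for the 9 tested transporter genes, with diamonds and bars for the limma estimate ± SE over 6 arrays, circles for wild type and squares for Nrdp1-/- (each a difference of 2 single arrays). Slc7a5 stands at 2.75 and 2.82, and Slc38a2 lies at 0.05 and 0.06.

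Over all 20 probe sets of the transporter genes the mean change was positive in 18 at 4 h and in 17 at 8 h. Of these probe sets 16 passed the brightness filter and 4 did not. With the brightest probe sets, 9 of the 10 genes were higher at 4 h than untreated in both genotypes, Slc38a2 being the exception, and 9 of 10 at 8 h, where Slc43a1 was lower in both. Between 4 h and 8 h no member was called, where 5 of all tested genes (0.0461%) were. Of the members, Slc1a5 (-0.34 ± 0.12), Slc38a1 (-0.23 ± 0.10) and Slc43a1 (-1.05 ± 0.43) had an unadjusted p under 0.05 there (limma, adjusted p from 0.47 to 0.58).

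**Figure D3:**
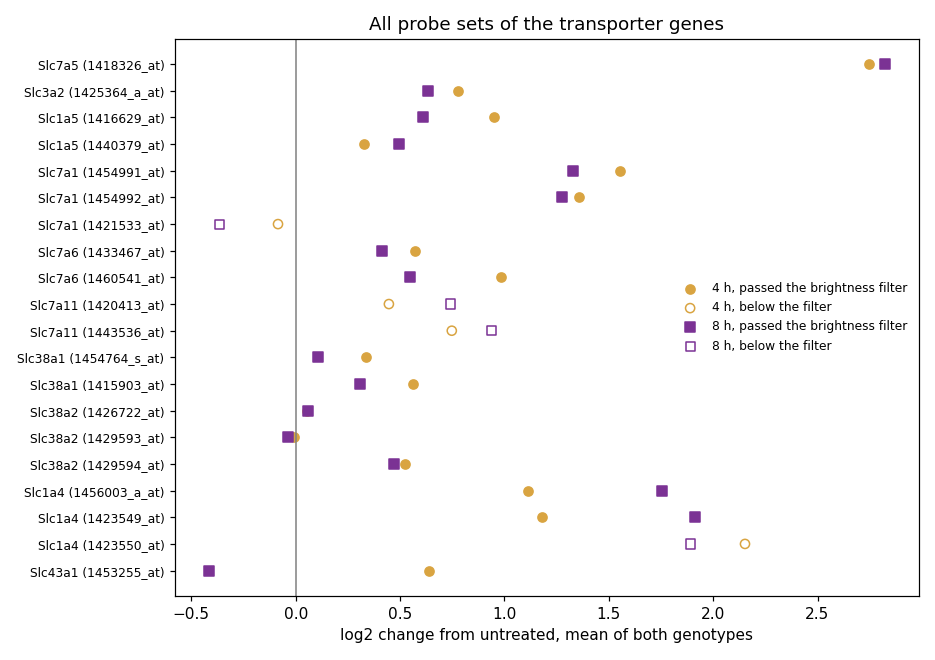
Mean log2 change over both genotypes at 4 h (circles) and 8 h (squares) for each of the 20 probe sets, filled where the probe set passed the brightness filter and open where it did not. The probe sets of Slc7a5 and the brighter pair of Slc7a1 lie farthest to the right among the filled ones at 4 h, and the dimmest Slc7a1 probe set lies below 0.

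The pattern of Slc7a5 was set beside that of every other tested gene, as the Euclidean distance between log2 profiles over the 6 arrays after each was centred on its own mean. The 5 closest of 10837 were Irgm1 (0.36), an interferon-inducible GTPase, Ifi47 (0.41), another gene of that family, 3110082I17Rik (0.43), Mthfd2 (0.48), the mitochondrial folate enzyme, and Shmt1 (0.50), the cytosolic serine hydroxymethyltransferase. Irgm1 gave 774, 5838 and 6332 in untreated, 4 h and 8 h wild-type cells and 1022, 7393 and 6450 in Nrdp1-/- cells. In untreated wild-type and Nrdp1-/- cells 3110082I17Rik gave 39.6 and 61.5, below the array median. It passed the filter only through stimulated cells, so its distance is uncertain. Among the other transporters the closest to Slc7a5 was Slc7a1, at a distance of 1.64, while Slc3a2 and Slc1a5 lay 0.45 from each other.

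Of 43 further transporter genes on the array 20 passed the brightness filter. At 4 h Slc6a9 was called higher and Slc43a2 and Slc6a19 lower, with a median of -0.23 over the 20. At 8 h Slc6a9 and Slc7a3 were called higher and Slc6a19, Slc43a2 and Slc38a9 lower, with a median of -0.37. These counts lie near the shares of all tested genes, 8.01% higher and 5.51% lower at 4 h and 9.88% and 9.26% at 8 h. The lower count at 4 h was 5 without either 8 h array and 1 without the untreated Nrdp1-/- array, where the higher count was 0, as it was without either 4 h array. At 8 h the lower count was 5 without either 4 h array or the wild-type 8 h array. The glycine carrier Slc6a9 gave 87.0, 159 and 236 in untreated, 4 h and 8 h wild-type cells and 66.9, 186 and 372 in Nrdp1-/- cells, a change of 1.13 ± 0.30 at 4 h and 1.90 ± 0.30 at 8 h. Slc7a3, a cationic amino acid carrier like Slc7a1, rose at 8 h by 1.30 ± 0.19. Slc43a2 (LAT4), a relative of Slc43a1, gave 1838, 1208 and 1270 in wild-type cells and 1831, 946 and 767 in Nrdp1-/- cells, and changed by -0.78 ± 0.16 and -0.89 ± 0.16. Slc6a19, a neutral amino acid carrier best known from gut and kidney, changed by -0.88 ± 0.11 and -1.03 ± 0.11. Slc38a9, the lysosomal arginine sensor, changed by -0.59 ± 0.12 at 8 h.

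Of the genes through which mTORC1 senses amino acids all 35 on the array were tested. Of them 0 were called higher and 1 lower at 4 h, and 2 higher and 4 lower at 8 h, with medians of -0.10 and -0.20. Of all tested genes 8.01% were higher and 5.51% lower at 4 h, and 9.88% and 9.26% at 8 h. The lower count at 4 h was 3 without either 8 h array or the Nrdp1-/- 4 h array and 0 without the untreated Nrdp1-/- array. At 8 h the counts were 1 higher and 2 lower without the untreated and 0 higher and 2 lower without the 8 h Nrdp1-/- array, and the lower count was 1 without the untreated wild-type array. The leucine sensor Sesn2 rose at 8 h by 1.37 ± 0.30 from 85.0 and 86.7 on the untreated arrays to 187 and 278. Its relative Sesn1 fell at both times, with changes of -0.42 ± 0.12 and -0.76 ± 0.12, from 7765 and 6356 to 5444 and 3164 at 8 h. Sec13, a subunit of the GATOR2 complex, rose at 8 h by 0.41 ± 0.13. Rptor, the raptor subunit of mTORC1, was lower at 8 h by a change of -0.46 ± 0.13, and Flcn, which acts on the Rag GTPases, by -0.36 ± 0.10.

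For the regulators, enzymes and other carriers that follow, the shares of all tested genes are again 8.01% higher and 5.51% lower at 4 h, and 9.88% and 9.26% at 8 h. Of 16 genes in a list of regulators of transporter genes and of genes from the same pathways, 6 were called higher and 0 lower at 4 h, and 6 higher and 1 lower at 8 h. The list is broader than direct regulators, since Chac1 and Ddit4 in it are not known to act on transporter genes. Myc rose from 1117 and 1199 on the untreated arrays to 4473 and 5854 at 4 h, by 2.14 ± 0.11, and Atf4 from 4016 and 3923 to 5511 and 6707, by 0.61 ± 0.11. Atf3 (1.47 ± 0.25), Chac1 (1.22 ± 0.23), Cebpb (0.60 ± 0.13) and Ddit4 (0.41 ± 0.12) were the other called genes at 4 h, and Bach1, a repressor of antioxidant genes, was the one called lower at 8 h (-0.72 ± 0.12). Of 18 tested enzymes that use the carried amino acids 7 were called higher and 0 lower at 4 h, and 7 higher and 1 lower at 8 h. They included Odc1 (1.45 ± 0.15 at 4 h), which draws on arginine through ornithine, Asns (1.74 ± 0.13), which uses glutamine, and Bcat1 (4.26 ± 0.22), which transaminates leucine. In untreated wild-type and Nrdp1-/- cells Bcat1 gave 15.9 and 33.7, and Cth, also called higher, gave 4.32 and 42.2. These signals lie below the array median, so both genes passed the filter only through stimulated cells and the size of their changes is uncertain. Gpt2, also called higher, was below the median in untreated wild-type cells (28.0). Of 7 tested carriers of other nutrients 4 were called higher and 1 lower at 4 h, and 4 higher and 2 lower at 8 h. Tfrc, the transferrin receptor, changed by 1.07 ± 0.10 at 4 h and the lactate carrier Slc16a1 by 0.78 ± 0.11, while the glucose carrier Slc2a3 changed by -0.41 ± 0.11. With 1 array left out, the higher counts at 4 h and 8 h were 4 to 6 and 5 to 7 for the regulators, 5 to 7 and 6 to 7 for the enzymes, and 3 to 4 at both times for the other carriers. The lower counts at 4 h and 8 h were 0 to 1 and 1 to 2 for the regulators, 0 to 1 and 0 to 2 for the enzymes, and 0 to 2 at both times for the other carriers. Without the intensity trend the higher counts were 1 and 1 for the regulators, 2 and 3 for the enzymes, and 0 and 1 for the other carriers.

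Between the genotypes most differences of the transporters were positive and not called. Of the 9 tested members Slc7a1 alone was called, higher in Nrdp1-/- cells, where 2.47% of all tested genes were called higher and 2.57% lower. The difference was positive in 8 of the 9 and in 5138 of all 10838 tested genes, with medians of 0.31 and -0.01. An unadjusted p under 0.05 (limma) was found for 4 of the 9 and for 1791 of all tested genes. With 1 array per genotype and time, a missing call does not show that a difference is small. The 3 arrays of a genotype cover the 3 times, so each difference is the mean over untreated, 4 h and 8 h cells. The Slc7a1 difference, Nrdp1-/- minus wild type, was 0.25 without stimulation, 0.29 after 4 h and 0.50 after 8 h, with a mean of 0.35 ± 0.09 (limma, adjusted p = 0.041). The second Slc7a1 probe set differed by 0.31, -0.05 and 0.31, with a mean of 0.19 (adjusted p = 0.39), and the mean over all 3 probe sets of the gene turned the difference to -0.026 (adjusted p = 0.96). The call held under 6 of 16 alternatives and was lost without either untreated array (0.40, adjusted p = 0.055) or either 8 h array (0.27, adjusted p = 0.20).

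Slc7a5 and its heavy chain Slc3a2 were higher on the Nrdp1-/- array at each time, and neither mean difference was called. The Slc7a5 difference was 0.79 without stimulation, 0.17 after 4 h and 0.21 after 8 h, with a mean of 0.39 ± 0.12 (limma, adjusted p = 0.10). Its level was thus 1.73-fold higher in untreated Nrdp1-/- cells and 1.13-fold and 1.16-fold higher in stimulated ones, and its rise to 4 h was 8.32-fold in wild-type and 5.42-fold in Nrdp1-/- cells. The difference between those rises did not pass the threshold (genotype-by-stimulation term -0.60 ± 0.24, limma, adjusted p = 0.86, unadjusted p = 0.013). The SE of that term rests on the spread that limma takes from all tested genes, and does not measure a spread of Slc7a5 itself. Leaving out either array of a time gives the same estimate of a genotype difference, because the array left without a partner does not bear on it. The Slc7a5 genotype difference was thus 0.19 without either untreated array, the same estimate as over the stimulated arrays alone (limma, adjusted p = 0.64 for the latter). It would be called without the wild-type 4 h (0.50, adjusted p = 0.026) or 8 h array (0.48, adjusted p = 0.014) or the Nrdp1-/- 4 h (0.50, adjusted p = 0.024) or 8 h array (0.48, adjusted p = 0.016). Slc3a2 differed by 0.33, 0.15 and 0.46 at the 3 times, with a mean of 0.31 ± 0.09 (limma, adjusted p = 0.081), and would be called without the wild-type 4 h array (0.39, adjusted p = 0.022) or the Nrdp1-/- 4 h array (0.39, adjusted p = 0.021). It was 0.24 without the wild-type (adjusted p = 0.32) or the Nrdp1-/- (adjusted p = 0.33) 8 h array, and 0.31 without either untreated array (adjusted p = 0.24).

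Slc1a4 had the largest mean difference among the tested members, 0.85 ± 0.32, uncalled (limma, adjusted p = 0.20). Its probe sets disagreed: the brightest differed by 0.92 in untreated cells and the second by -2.25, on signals of 66.6 in wild-type and 10.5 in Nrdp1-/- cells. The remaining members had mean differences of 0.04 ± 0.10 (Slc1a5), 0.04 ± 0.08 (Slc38a1), 0.04 ± 0.09 (Slc38a2), 0.42 ± 0.35 (Slc43a1) and -0.14 ± 0.11 (Slc7a6). Their 95% intervals reached from -0.18 to 0.25 for Slc1a5, -0.15 to 0.22 for Slc38a1 and -0.16 to 0.25 for Slc38a2. With the brightest probe sets 5 of the 10 genes were higher in Nrdp1-/- cells at all 3 times (Slc7a5, Slc3a2, Slc7a1, Slc7a11 and Slc1a4) and 0 were lower at all 3. No member was called in the genotype-by-stimulation term, where 24 of all tested genes (0.221%) were, and Slc7a5 was the 1 member with an unadjusted p under 0.05.

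**Figure D4:**
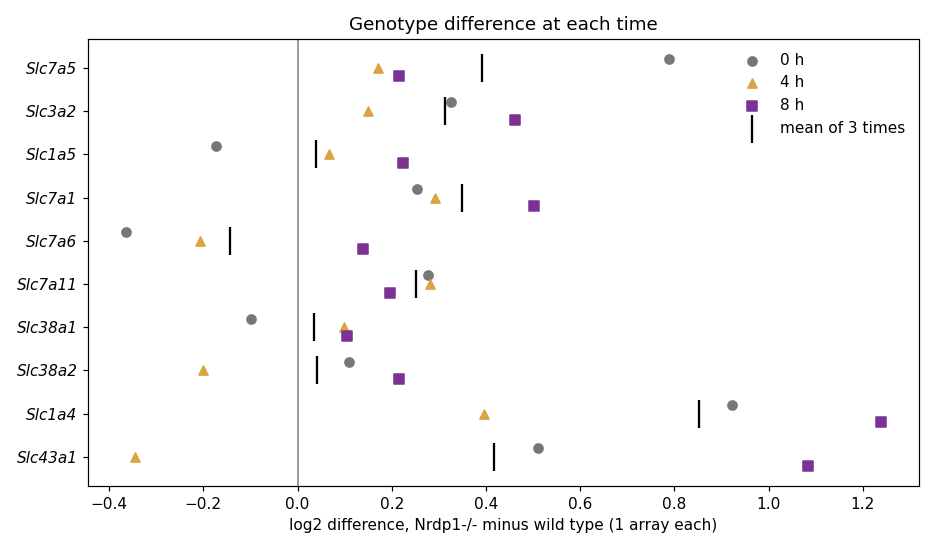
Log2 difference in signal + 4.45, Nrdp1-/- minus wild type, for the 10 transporter genes in untreated cells (circles), at 4 h (triangles) and at 8 h (squares), each from 1 array per genotype, with a vertical bar for the mean of the 3 times. The 3 points of Slc7a5, Slc3a2, Slc7a1, Slc7a11 and Slc1a4 lie to the right of 0, and those of Slc1a5, Slc38a1, Slc38a2, Slc7a6 and Slc43a1 lie on both sides.

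Markers of other cells differed between the genotypes on the same arrays. Of 11 B cell markers on the array 9 were tested and 8 were called lower in Nrdp1-/- cells, with a summed signal of 14061 to 15831 on wild-type and 2782 to 3263 on Nrdp1-/- arrays. Of 12 myeloid markers 11 were tested and 5 were called higher, with sums of 2018 to 2254 and 3112 to 13109. Of 9 markers of natural killer and memory-like CD8+ cells 8 were tested and 7 were called higher, with sums of 28916 to 31825 and 41887 to 44593. The 4 plasma cell markers held 2 called higher, with sums of 7366 to 8603 and 14455 to 21230, while of the 7 T cell markers none was called (sums of 67922 to 75122 and 63593 to 73819). No marker was listed at 0, and the part of these cells in the genotype differences of the transporters was not tested. Of the related genes, Slc6a19 was the 1 called of 20 further transporters (-1.38 ± 0.09), at 4297, 2386 and 2042 in wild-type and 1638, 870 and 827 in Nrdp1-/- cells. In the mTORC1 list Fnip2 was called higher (1.37 ± 0.29) and Sesn1 lower (-0.49 ± 0.10), and among the regulators Cebpb was called higher (0.56 ± 0.10). Of the enzymes Asns (1.57 ± 0.11) and Got1 (0.40 ± 0.10) were called higher, and of the carriers of other nutrients Slc16a1 (0.37 ± 0.09) was. The Asns signal was 168, 634 and 877 in untreated, 4 h and 8 h wild-type cells and 572, 1738 and 2545 in Nrdp1-/- cells.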

How the data were processed

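The deposited values are linear signal intensities made with MAS5 (no version given), per the submitters' processing notes. Trimmed of 2% at either end, the mean signal was 500 on each of the 6 arrays, so the authors had scaled them. One factor per array would hide a shift of most transcripts. Of 45101 probe sets 64 array controls were left out, 34945 had 1 symbol in the platform annotation, 932 had several and 9160 were unlisted. All 10 transporter symbols matched by Entrez identifier in RefSeq. The brightest probe set stood for a gene. The pseudocount was the 10th percentile of all values, which understates changes of dim genes, and a gene was tested if its probe set reached the array median on at least 2 arrays.

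Additive models (time and genotype, 2 residual and 8.99 prior degrees of freedom) and a model with a genotype-by-stimulation term (1 residual degree of freedom) were fitted with limma 3.58.1 in R 4.3.3 (eBayes with intensity trend, Benjamini-Hochberg). The spread of the genotype-by-stimulation term rests on the prior. Only the 4 h contrast of the additive model was tested on simulated data. The number of arrays limits the precision. Leaving out either array of a time gives the same estimate of a genotype difference, so these are not separate checks. The members, lists and alternatives were chosen with earlier results of these data known. Named were every member, up to 6 called genes per direction of each related list, the 5 profiles closest to Slc7a5, and Rnf41. Where a condition was below the array median on both arrays, its fold is a lower bound against that median. Alternatives were another scaling (quantile, median centring), pseudocounts of 1 and 24.3, no filter, a stricter filter (70th percentile), each other probe set that passed the filter, averaging every probe set that a gene has, eBayes with no trend, calls of at least 2-fold, stimulated arrays only, the additive model's spread for the genotype-by-stimulation term, and leaving out each array.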

Additional observations from a re-analysis of the deposited data

Results flagged for a closer look

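With 1 array per genotype and time, some transporter genes changed sign between the arrays of one comparison. Differences at a single time were not tested, and none of these genes was called in the genotype-by-stimulation term. Slc38a2 changed from untreated to 4 h by 0.21 in wild-type and by -0.10 in Nrdp1-/- cells. The difference Nrdp1-/- minus wild type took both signs over untreated, 4 h and 8 h cells in 5 genes. It was -0.17, 0.07 and 0.22 in Slc1a5, and -0.36, -0.21 and 0.14 in Slc7a6. In Slc38a1 it was -0.10, 0.10 and 0.11, and in Slc38a2 it was 0.11, -0.20 and 0.22. In Slc43a1, whose signal is near the array median, it was 0.51, -0.35 and 1.08.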

How the results depend on the processing

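The rises of Slc7a5 and Slc7a1 kept their direction and their call at both times under every alternative run. The dimmest Slc7a1 probe set, below the filter (-0.08 and -0.37), entered only the mean of probe sets and was not tested by itself. Slc3a2 at both times lost its call without the intensity trend and with a 2-fold minimum only. Members called higher numbered 2 at 4 h and 2 at 8 h without the trend, and 2 and 3 with a 2-fold minimum. With 1 array left out they numbered 4 to 6 at 4 h, and at 8 h 3 to 6, the 3 being without the Nrdp1-/- 8 h array. Between genotypes the member count of 1 became 0 with median centring, no filter, the mean of probe sets, no trend, a 2-fold minimum or the stimulated arrays alone, and 0 to 3 with 1 array left out. Slc7a1 there reversed to -0.026 with the mean of its probe sets, which includes the dimmest one.

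Over all genes, 868 higher and 597 lower at 4 h became 83 and 4 without the trend and 268 and 38 with a 2-fold minimum. The lower count was 386 with median centring and 302 with the mean of probe sets. At 8 h 1071 and 1004 became 103 and 5 without the trend and 311 and 46 with a 2-fold minimum, and the lower count 435 with the mean of probe sets. From 4 h to 8 h, 2 and 3 became 7 and 33 with median centring, 0 and 0 without the trend, and 1 and 1 with a 2-fold minimum. There the mean of probe sets gave 1 higher, and the larger pseudocount 8 lower. Between genotypes 268 and 279 became 175 and 181 with the mean of probe sets, 42 and 57 without the trend, and 105 and 95 with a 2-fold minimum. For the genotype-by-stimulation term 10 and 14 became 4 and 4 with quantile normalization, 5 and 8 with median centring, and 0 and 0 with the mean of probe sets or without the trend. Leaving out 1 array gave 574 to 1067 higher and 217 to 941 lower at 4 h, 689 to 1326 and 349 to 1537 at 8 h, and 18 to 46 and 14 to 79 between them. The causes were not tested. No paired analysis was possible because the labels give no replicate numbers, with 1 array per genotype and time. Leaving out an array leaves no residual degree of freedom for the genotype-by-stimulation term. For Slc7a11 and Slc43a1 signal over background is the limit.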
